A study of Capra hircus with 2 samples.

Results

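The HOX genes of goat skin were taken as every feature whose symbol is HOXA, HOXB, HOXC or HOXD followed by a number. This rule gave 37 genes of the 27137 features of the count matrix, with 11 in HOXA, 9 in HOXB, 9 in HOXC and 8 in HOXD. HOX genes encode homeodomain transcription factors that lie in clusters on separate chromosomes. Within a cluster, genes at one end are used towards the head of the embryo and genes at the other end towards the tail and limb tips, and genes with the same number in different clusters are paralogs. Cells of adult skin keep part of this code: dermal fibroblasts of different body sites are known to differ in their HOX genes. HOXC13 is known for a separate role, in the hair matrix and cortex, where it acts on hair keratin genes.

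Skin over the scapula of 2 healthy Liaoning cashmere goats in anagen, the growth phase of the hair follicle, was dissociated and measured with the 10x Chromium 3′ kit. CT-LCG is the library of a goat of the coarse cashmere type and FT-LCG that of a goat of the fine type, with 1 library each, so fibre type, goat and library cannot be told apart. Sex and age are not given in the GEO labels. The study asked how the cells of the 2 types differ, and the HOX values bear on it as positional genes.

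CT-LCG held 3443 kept cells with 27890472 UMIs and a median of 2314 UMIs per cell, and FT-LCG held 9608 kept cells with 85400323 UMIs and a median of 6122. A UMI is a counted mRNA molecule, and 11 barcode sequences occurred among the kept cells of both libraries. Levels are given as CPM, the UMIs of a gene per 1000000 UMIs of the cells named, and are not scaled by gene length, since the kit counts the 3′ end. Each has a 95% Poisson interval, which covers counting error only, given in parentheses. The libraries are called CT and FT from here on. Without a second library of either type no test was possible, and none of the differences has a replicate check.

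HOX genes were rare. In CT 1985 UMIs came from HOX genes, a summed level of 71.2 CPM (68.1 to 74.4). In FT 9896 UMIs did, or 116 CPM (114 to 118). At least 1 HOX UMI was found in 30.4% of the CT cells and 46.8% of the FT cells, whose depths differ as given above. HOXC genes gave 5656 of the 11881 HOX UMIs, HOXA genes 3431, HOXB genes 2483 and HOXD genes 311.

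The most counted member was HOXB7, with 359 UMIs in CT and 1555 in FT. HOXA5 followed with 403 and 961, HOXC6 with 179 and 1124, HOXC4 with 148 and 1129, and HOXC13 with 135 and 1007. In all, 26 genes reached 20 UMIs and are described by cell class. A further 5 had between 1 and 19 UMIs: HOXA9 with 2 and 8, HOXB5 with 4 and 10, HOXD1 with 8 and 4, HOXD11 with 1 and 11, and HOXA13 with 0 and 1. The other 6 (HOXA10, HOXA11, HOXB1, HOXB13, HOXD12 and HOXD13) had 0 UMIs in the kept cells, which allows up to 3 counts in each library. Of these 11 rare genes, 8 belong to groups 9 to 13, the tail end of the clusters. All other genes of these groups (HOXB9, HOXC9, HOXC10, HOXC11, HOXC12, HOXC13, HOXD9 and HOXD10) reached 20 UMIs, so the count is no result about position. HOXA13, a gene of the distal limb, rested on a single UMI in a stromal cell of FT.

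Cells were clustered without the HOX genes, so that no HOX value shaped a class, and clusters were named from marker lists. The stromal cluster, led by COL1A1 and RSPO3, held 105 cells in CT and 124 in FT. The hair cluster, with KRT35, held 132 and 384, and the epidermal classes, with KRT14 or KRT10, held 1126 and 4040. Outer root sheath, inner root sheath, endothelial, cycling, T cell and mast cell classes were named in the same way. Names are descriptions of clusters, and each is called a class here. Clusters led by LY6D (257 and 736 cells) and by TRPV3 (338 and 925) also had KRT14 and KRT10 but stayed unnamed. They are left out of the epidermal cells, so that "all epidermal cells" means the named epidermal classes only. Their summed HOX levels were 60.4 and 88.4 CPM for the LY6D cluster and 76.8 and 112 CPM for the TRPV3 cluster.

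**Figure D1:**
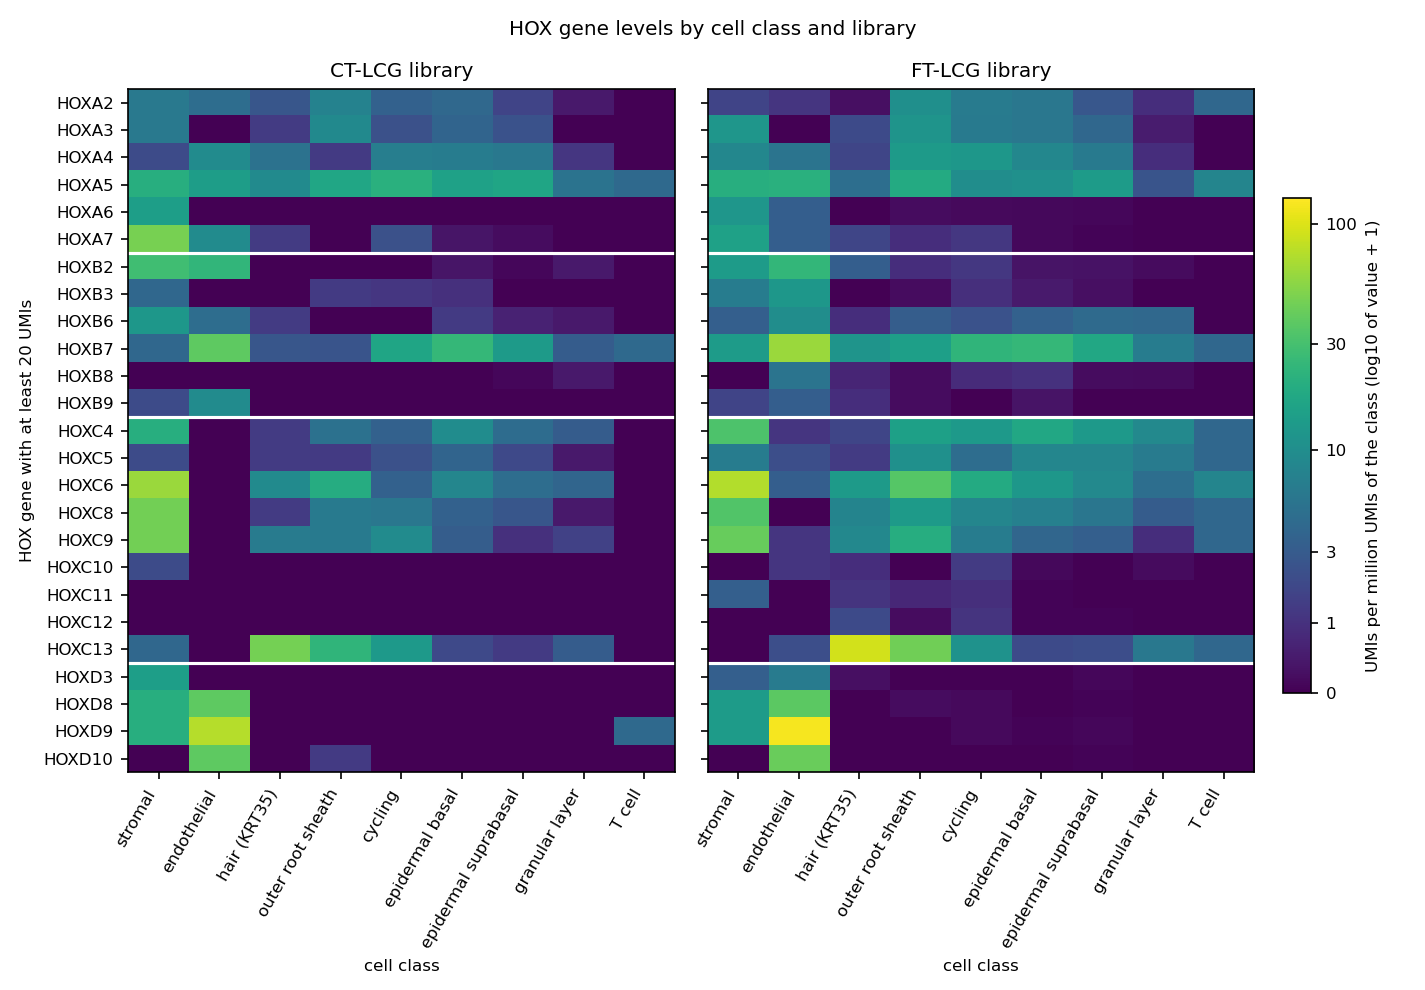
Level of the HOX genes with at least 20 UMIs that are reported here (rows, in cluster order, white lines between clusters) in 9 cell classes (columns) of each library; colour is CPM on a log10 scale of the value plus 1. HOXD8 and HOXD9 are bright in endothelial and stromal cells and HOXD10 in endothelial cells only. HOXC4, HOXC6, HOXC8 and HOXC9 are bright in stromal cells and dark in endothelial cells. Of the classes drawn, HOXC13 is bright in hair and outer root sheath cells. Inner root sheath and smooth muscle-like cells, which also had HOXC13 UMIs, are not drawn.

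Summed over all members, the level was highest in stromal and endothelial cells of both libraries. Stromal cells had 191 HOX UMIs in CT, or 391 CPM (337 to 450), and 201 in FT, or 343 CPM (297 to 393). Endothelial cells had 62 and 350 UMIs, or 294 CPM (225 to 377) and 387 CPM (348 to 430). Epidermal cells, with 1031 and 4361 UMIs, were at 59.9 CPM (56.3 to 63.7) and 94.4 CPM (91.6 to 97.2). The stromal level was thus 6.52 times the epidermal level in CT (5.56 to 7.62) and 3.63 times in FT (3.14 to 4.18). The intervals of stromal and endothelial cells overlapped in each library.

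T cells, which are not resident structural cells of the skin, served as the low reference. Their 59 and 47 cells had 4 and 12 HOX UMIs, or 17.0 CPM (4.64 to 43.6) and 49.7 CPM (25.7 to 86.8). After every cell was thinned to 1000 UMIs, a HOX UMI was left in 25% of stromal cells and 1.85% of T cells of CT, and in 32.4% and 2.17% in FT. Before thinning the shares were 66.7% and 6.78% in CT and 70.2% and 17.0% in FT, at median depths of 4121 and 3852 UMIs and of 3981 and 4074 UMIs. Thinning left out 5 stromal cells and 5 T cells of CT, and 13 stromal cells and 1 T cell of FT. HOX UMIs in stromal cells stood above this reference in both libraries. T cells had the lowest summed level of all classes in CT and nearly the lowest in FT, so this order describes the classes and tests nothing. The plan had named granular cells of the epidermis as the reference for stromal genes. Their summed HOX level was 24.4 CPM in CT and 46.8 CPM in FT.

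Which clusters were used differed more between classes than the summed level did. HOXD genes were found in endothelial and stromal cells and were close to 0 in every epithelial class. Endothelial cells had 36 HOXD UMIs in CT and 200 in FT, or 171 CPM (120 to 236) and 221 CPM (192 to 254). Stromal cells had 29 and 18, or 59.3 CPM (39.7 to 85.2) and 30.7 CPM (18.2 to 48.5). Epidermal cells had 1 HOXD UMI among 17213555 UMIs in CT and 8 among 46220766 in FT. The endothelial level of HOXD was 2.88 times the stromal level in CT (1.71 to 4.86) and 7.21 times in FT (4.45 to 12.4).

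**Figure D2:**
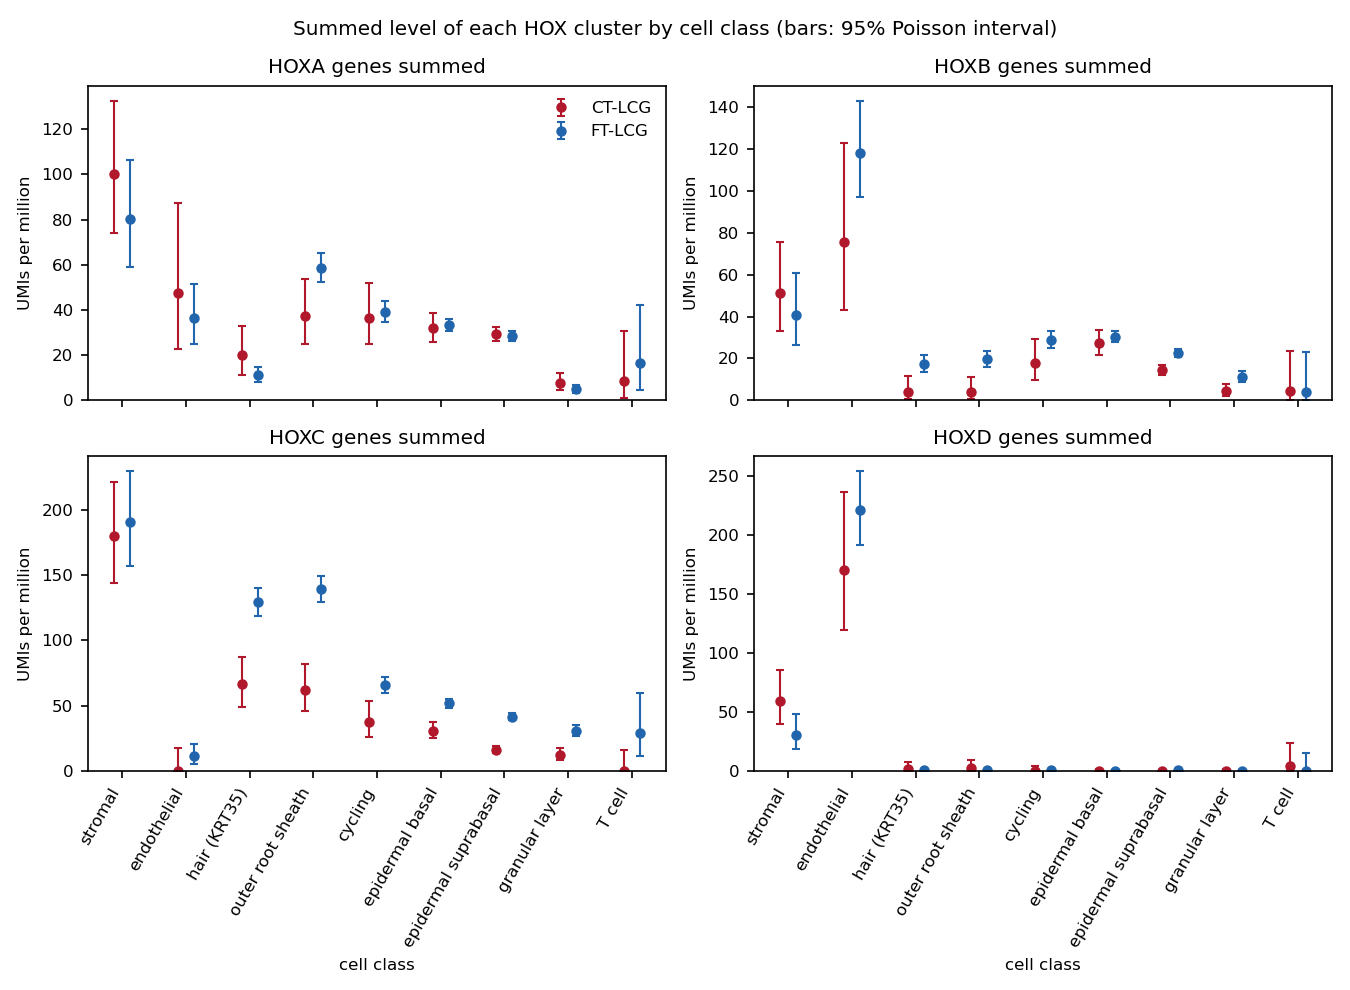
Summed level of HOXA, HOXB, HOXC and HOXD genes (1 panel each; CPM) in 9 cell classes, with CT in red and FT in blue; points are the level of 1 library and bars are 95% Poisson intervals. HOXC lies at 0 and 11.1 CPM in endothelial cells and at 180 and 191 in stromal cells, and HOXD is close to 0 outside these classes.

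HOXD9, a gene of the trunk and limb bud, was the most counted HOX gene of endothelial cells. It had 16 of their 62 HOX UMIs in CT, or 75.8 CPM (43.3 to 123), and 109 of 350 in FT, or 121 CPM (99.0 to 145). In stromal cells it had 10 and 8 UMIs, and among all epidermal cells 0 and 3. HOXD9 UMIs were seen in 10 of 57 endothelial cells of CT and 56 of 156 of FT, and in 1 of 59 and 0 of 47 T cells. After thinning the endothelial shares were 4.17% and 11.6%, and those of T cells 0%, which allows up to 5.56% and 6.52%. The CT share thus does not stand above that limit at this depth. HOXD8, its neighbour, had 8 and 34 endothelial UMIs, or 37.9 and 37.6 CPM, and 10 and 8 stromal UMIs. HOXD10 had 8 and 38 endothelial UMIs and 0 stromal UMIs in both libraries, so that its endothelial level was at least 6.18-fold higher than the stromal level in CT and at least 8.22-fold higher in FT, against a floor of 3 counts per library. HOXD11, with few counts, followed this order in FT only, where 9 of its 11 UMIs were endothelial. Its 1 UMI in CT was not endothelial. HOXD3 had 7 stromal and 0 endothelial UMIs in CT, while FT had 2 and 6.

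HOXC genes went the other way. Endothelial cells had 0 HOXC UMIs in CT and 10 in FT, or 11.1 CPM (5.31 to 20.3), while T cells of FT were at 29.0 CPM (11.7 to 59.7). HOXC8 had 0 UMIs in endothelial cells of both libraries. Stromal cells had 88 and 112 HOXC UMIs, or 180 CPM (144 to 222) and 191 CPM (157 to 230). The stromal level was 9.90 times the epidermal level in CT (7.72 to 12.6) and 4.38 times in FT (3.59 to 5.30). Stromal and endothelial cells thus differed in which clusters they used.

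HOXB genes were counted in endothelial, stromal and epidermal cells, but not at the same level. Summed, they stood at 75.8 CPM (43.3 to 123) and 118 CPM (97.0 to 143) in endothelial cells. Stromal cells were at 51.1 and 40.9 CPM and epidermal cells at 15.2 and 23.8. HOXB7, a trunk gene, had 8 and 56 endothelial UMIs, or 37.9 CPM (16.4 to 74.7) and 61.9 CPM (46.8 to 80.4). This was 2.73 times the epidermal level in CT (1.17 to 5.47) and 3.33 times in FT (2.49 to 4.36). HOXB2, used in the hindbrain, had 5 and 22 endothelial UMIs and 14 and 8 stromal UMIs, but only 3 and 12 UMIs among all epidermal cells. HOXB8 lies inside the span of HOXB9 in the reference annotation (assembly ARS1.2), so that UMIs of this pair cannot be assigned with certainty; they had 4 and 45 UMIs and 5 and 16 UMIs.

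Of the 26 genes, 13 were more than 2-fold higher in stromal than in epidermal cells in both libraries (21.5% of the 15714 features with at least 20 UMIs were). These were HOXA3, HOXA6, HOXA7, HOXB2, HOXB3, HOXB9, HOXC4, HOXC6, HOXC8, HOXC9, HOXD3, HOXD8 and HOXD9. Only HOXB8, with 0 stromal UMIs, was more than 2-fold lower in both (13.9% of all features were). Its epidermal 0.12 and 0.48 CPM lay below the 6.14 and 5.11 CPM of 3 stromal counts, so a lower level could not be seen. The median log2 ratio of stromal to epidermal level, with 1 CPM added, was 1.29 over the 26 genes and 0.33 over all features. Without the RGS5, ACTG2 and melanocyte-like cells described further on, an alternative chosen after seeing the data, 11 of the 26 were higher (18.5% of all features). HOXA3 and HOXB9 then dropped out. In the full stromal cluster HOXB9 rested on 1 UMI in each library and HOXA3 on 3 and 7. Some of these genes reached 20 UMIs only through the stromal or endothelial cells and had to be higher there, so the count describes them and tests nothing. In endothelial cells 8 of the 26 were higher (14.9% of all features), namely HOXA7, HOXB2, HOXB6, HOXB7, HOXB9, HOXD8, HOXD9 and HOXD10. In CT HOXB6 rested on 1 endothelial UMI, and HOXA7 and HOXB9 on 2 each, under the limit of 3 counts. A further 6 were lower in endothelial cells (18.5%), namely HOXA3 and HOXC4, HOXC5, HOXC6, HOXC8 and HOXC9. These 6 are 23.1% of the 26, near the share of all features. Each had 0 endothelial UMIs in CT. Their CT epidermal levels, at most 5.29 CPM, lay below the 14.2 CPM of 3 endothelial counts, so a lower level could not be seen in CT.

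Among HOXC genes of stromal cells, HOXC6 stood highest. HOXC6, a thoracic gene, had 30 UMIs in CT, or 61.4 CPM (41.4 to 87.6), and 43 in FT, or 73.3 CPM (53.0 to 98.7). HOXC8 had 22 and 20 UMIs, or 45 CPM (28.2 to 68.1) and 34.1 CPM (20.8 to 52.6). HOXC9 had 22 and 24, or 45 CPM (28.2 to 68.1) and 40.9 CPM (26.2 to 60.9). Their epidermal levels were 5.23, 2.50 and 1.45 CPM in CT and 9.52, 5.99 and 3.25 in FT. The ratio of stromal to epidermal level in CT was 3.87 (1.79 to 7.45) for HOXC4, 11.7 (7.49 to 17.9) for HOXC6, 18.0 (10.3 to 30.8) for HOXC8 and 31.0 (16.7 to 57.3) for HOXC9. In FT it was 2.33 (1.39 to 3.67), 7.70 (5.49 to 10.5), 5.69 (3.42 to 8.96) and 12.6 (7.83 to 19.5). HOXC9 was thus above HOXC4 in both libraries, and the intervals of HOXC6 and HOXC8 overlapped. HOXC5, between HOXC4 and HOXC6 on the cluster, had only 1 and 4 stromal UMIs.

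**Figure D3:**
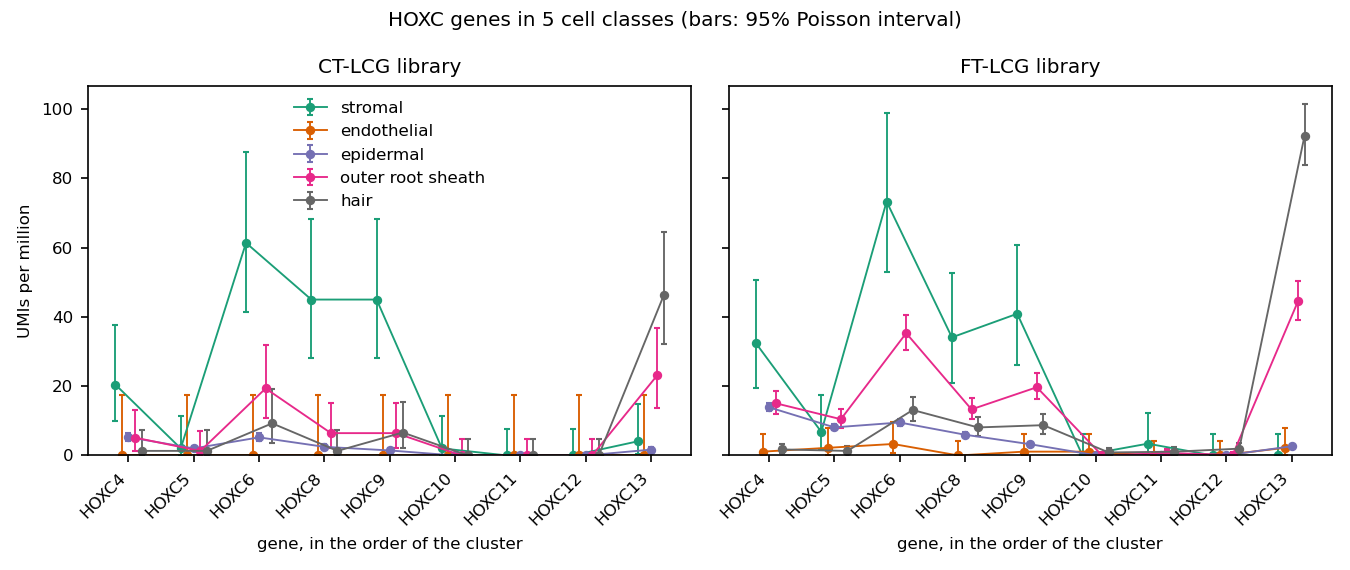
Level of the 9 HOXC genes (x axis, in cluster order; y axis, CPM) in 5 cell classes of each library, with 95% Poisson intervals. Stromal cells peak at HOXC6 to HOXC9, hair cells at HOXC13, and outer root sheath cells show both peaks; HOXC10, HOXC11 and HOXC12 are near 0 throughout.

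Members of the HOXA cluster differed in where they were counted. HOXA6, HOXA7 and HOXA9 had 31 and 20 stromal UMIs, 63.4 CPM (43.1 to 90.0) and 34.1 CPM (20.8 to 52.6), but 3 and 7 UMIs among all epidermal cells. HOXA7 alone had 23 stromal and 3 epidermal UMIs in CT, and 9 and 3 in FT. HOXA5, next to HOXA6 on the cluster, had 10 and 12 stromal UMIs against 254 and 502 in the far deeper epidermal pool, a ratio of levels of 1.39 (0.66 to 2.59) and 1.88 (0.97 to 3.32) that includes 1 in both libraries.

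The stromal cluster was a mixture, and its makeup differed between the libraries. Clustered again without HOX genes, it fell into 5 sub-clusters. An RSPO3 and WIF1 sub-cluster, dermal papilla-like by its markers, held 67 cells in CT and 11 in FT. A collagen sub-cluster with COL1A1, LUM and DCN held 8 and 44. The others were led by RGS5 (10 and 30 cells), by ACTG2 (8 and 31) and by the melanocyte genes MLANA and PMEL (12 and 8). The stromal values above therefore weigh mainly dermal papilla-like cells in CT and collagen, RGS5 and ACTG2 cells in FT.

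The dermal papilla is the dermal cell group at the base of the follicle that signals to the hair matrix. Its cells had 147 HOX UMIs in CT, or 427 CPM (360 to 501), and 32 in FT, or 604 CPM (413 to 853). HOXC6, with 27 and 6 UMIs, led in CT and HOXC9, with 16 and 8, in FT. HOXC8 had 21 and 5 UMIs, HOXA7 20 and 3, HOXB2 10 and 4, HOXD9 9 and 4, and HOXC4 9 and 1. HOXD8 had 9 and 1, and HOXB7 had 0 in both. These cells thus carried HOXC6 to HOXC9 together with HOXA7, HOXB2 and HOXD8 to HOXD9, while HOXA5 had 5 and 0 UMIs.

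Collagen cells had 11 and 66 HOX UMIs, or 212 CPM (106 to 380) and 433 CPM (335 to 551). In FT, where they were numerous enough to describe, HOXC6 had 12 UMIs, HOXC9 11, HOXC4 8 and HOXC8 7, while HOXA7 had 2 and HOXB2 had 0. RGS5 cells had 13 and 44, with HOXC6 at 2 and 14 and HOXC8 at 0 in both. ACTG2 cells had 2 and 47, with KRT14 also at a high level in them. Melanocyte-like cells had 18 and 12 HOX UMIs in 12 and 8 cells, or 429 CPM (254 to 677) and 323 CPM (167 to 564). Only 0 and 4 of these were HOXC UMIs, while HOXA genes gave 8 and 7 and HOXB6 gave 5 and 0. Melanocytes arise from the neural crest rather than the dermis, and these cells are too few for a closer account.

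Within the epidermis the HOX level fell with the layer. Basal cells had 279 and 1972 HOX UMIs, or 89.7 CPM (79.5 to 101) and 116 CPM (111 to 121). Suprabasal cells were at 59.8 CPM (55.4 to 64.4) and 92.4 CPM (88.5 to 96.5), and granular cells at 24.4 CPM (18.8 to 31.2) and 46.8 CPM (41.8 to 52.3). The intervals did not overlap between neighbouring layers in either library. Granular over basal, the level was 0.27 (0.20 to 0.36) in CT and 0.41 (0.36 to 0.46) in FT.

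Not every member followed this order. HOXA5 was lower in granular than in basal cells by a ratio of 0.35 (0.18 to 0.65) and 0.24 (0.14 to 0.40), and HOXB7 by 0.13 (0.052 to 0.26) and 0.27 (0.20 to 0.37). From basal to suprabasal cells HOXA5 did not fall, at 15.4 and 16.7 CPM in CT and 10.6 and 13.5 in FT. Of the 26 genes, 10 were more than 2-fold lower in granular cells in both libraries (23.7% of all features were), and 0 were more than 2-fold higher (8.26%). HOXA7 and HOXB3, 2 of the 10, had 0 granular UMIs. Their basal levels, 0.32 and 0.12 CPM for HOXA7 and 0.96 and 0.41 for HOXB3, were low. They lay below the 1.16 and 0.45 CPM of 3 granular counts, so a lower level could not be seen. The ratio of granular to basal level of HOXC4 was 0.32 (0.13 to 0.72) and 0.51 (0.38 to 0.68). HOXB6, with 60 basal and 28 granular UMIs in FT, stood at 3.52 and 4.19 CPM there. HOXC13 had 6 basal and 8 granular UMIs in CT and 34 and 40 in FT, a granular level of 1.61 (0.49 to 5.62) and 3.00 (1.85 to 4.89) times the basal one.

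HOXC13 was the HOX gene of the hair cluster. It had 35 UMIs in hair cells of CT, or 46.4 CPM (32.3 to 64.5), and 422 in FT, or 92.3 CPM (83.7 to 102). With cells chosen by marker UMIs in place of clusters it was 66.7 and 59.9 CPM, so that the order of the libraries turned. With finer clusters (Leiden resolution 1.5) it was 90.7 and 105 CPM, and without the Harmony correction 85.1 and 96.2, so that the CT level came close to that of FT. The hair level was 27.5 times the epidermal level in CT (16.4 to 46.7) and 34.7 times in FT (28.3 to 42.8). HOXC13 made up 50.7% of all HOX UMIs of hair cells in CT (38.4 to 63.0, Clopper-Pearson) and 58.4% in FT (54.8 to 62.1). Without it, the HOX level of hair cells was 45.1 CPM (31.2 to 63.0) and 65.6 CPM (58.4 to 73.5). A HOXC13 UMI was seen in 13 of 132 and 123 of 384 hair cells; after thinning the shares were 5.41% and 8.41%, against 0% and 0.72% of endothelial cells. Thinning left out 21 and 39 hair cells and 9 and 18 endothelial cells. The 0% of CT endothelial cells allows up to 3 counts, a share of the cells left that is above 5.41%. The CT hair share thus does not stand above that limit at this depth.

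Hair cells and outer root sheath cells are epithelial neighbours in the follicle, and HOXC13 was high in both, but not only there. By the mean of the libraries the smooth muscle-like cluster, at 34.8 CPM, came second to hair cells, at 69.4 CPM. It had 0 HOXC13 UMIs in CT and 39 in FT. Outer root sheath cells had 18 and 251 HOXC13 UMIs, or 23.2 CPM (13.8 to 36.7) and 44.5 CPM (39.2 to 50.4). Hair over outer root sheath, the level was 2.00 (1.10 to 3.75) in CT and 2.07 (1.77 to 2.43) in FT. Inner root sheath cells, 1028 in CT and 1920 in FT, had 26 and 30 HOXC13 UMIs. These were 19.3% and 2.98% of the gene's UMIs, against 13.3% and 24.9% in outer root sheath cells. In CT the 26 UMIs lay among 1252313, a level close to that of outer root sheath cells, with 18 among 775172. The inner root sheath cluster was shallow, at median depths of 1079 and 1112 UMIs. It also held KRT10 and KRT14, at 166 and 87.9 UMIs per 10000, so its name is uncertain. Part of the other HOX genes were lower in hair cells. HOXC4 to HOXC9 in hair cells stood at 0.51 (0.26 to 0.99) and 0.35 (0.29 to 0.42) of the outer root sheath level, and the HOXA genes summed at 0.53 (0.27 to 1.02) and 0.19 (0.14 to 0.26), where the CT interval holds 1. HOXB genes were at 3.98 and 17.3 CPM in hair cells and at 3.87 and 19.5 in outer root sheath cells, ratios of 1.03 (0.14 to 7.67) and 0.89 (0.65 to 1.19) that include 1. HOXB2 went the other way in FT, at 3.28 CPM in hair and 0.89 in outer root sheath cells, a ratio of 3.70 (1.28 to 13.0), with 0 UMIs in both classes of CT. Outer root sheath cells had HOXC6 at 19.4 and 35.3 CPM and HOXC9 at 6.45 and 19.7, several times the epidermal levels given above. Of the 26 genes, 6 were more than 2-fold higher in outer root sheath than epidermal cells in both libraries (16.2% of all features). They were HOXA2, HOXA3, HOXC6, HOXC8, HOXC9 and HOXC13. These 6 are 23.1% of the 26, not far from the share of all features, and are no result about the genes. In CT HOXA2, HOXA3, HOXC8 and HOXC9 rested on 6, 7, 5 and 5 outer root sheath UMIs. Going the other way, 1 gene, HOXB8, was lower (6.91%). HOXB8 had 0 and 1 UMIs in outer root sheath cells, too few for a lower level to be seen. In hair cells 3 were higher, HOXA7, HOXC9 and HOXC13 (7.35%), and 3 were lower, HOXB3 and HOXC4 among them (14.3%). Each count is 11.5% of the 26, not far from these shares, and is no result about the genes. HOXA7 and HOXC4 each had only 1 hair UMI in CT and 8 in FT. HOXB3 had 0 hair UMIs, and its epidermal 0.17 and 0.26 CPM lay below the 3.98 and 0.66 CPM of 3 hair counts.

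Within the hair cluster HOXC13 followed KRT35, a hair keratin. Hair cells with a KRT35 UMI had HOXC13 at 98.8 CPM (68.0 to 139) in CT and 130 CPM (117 to 143) in FT. Hair cells without one were at 4.76 CPM (0.58 to 17.2) and 14.8 CPM (9.25 to 22.3), at median depths of 1344 and 3240 UMIs against 1724 and 12212 in the cells with KRT35. The same order was seen in cycling cells, at 30.6 and 24.4 CPM with KRT35 and 5.10 and 4.23 without. It was not seen in outer root sheath cells, which were at 0 and 37.3 CPM with KRT35 and 29.8 and 48.2 without. Inner root sheath cells were at 41.1 and 15.9 CPM with KRT35 and 12.4 and 10.6 without, and the FT intervals overlapped. The part of depth and of free KRT35 RNA in these splits was not tested.

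**Figure D4:**
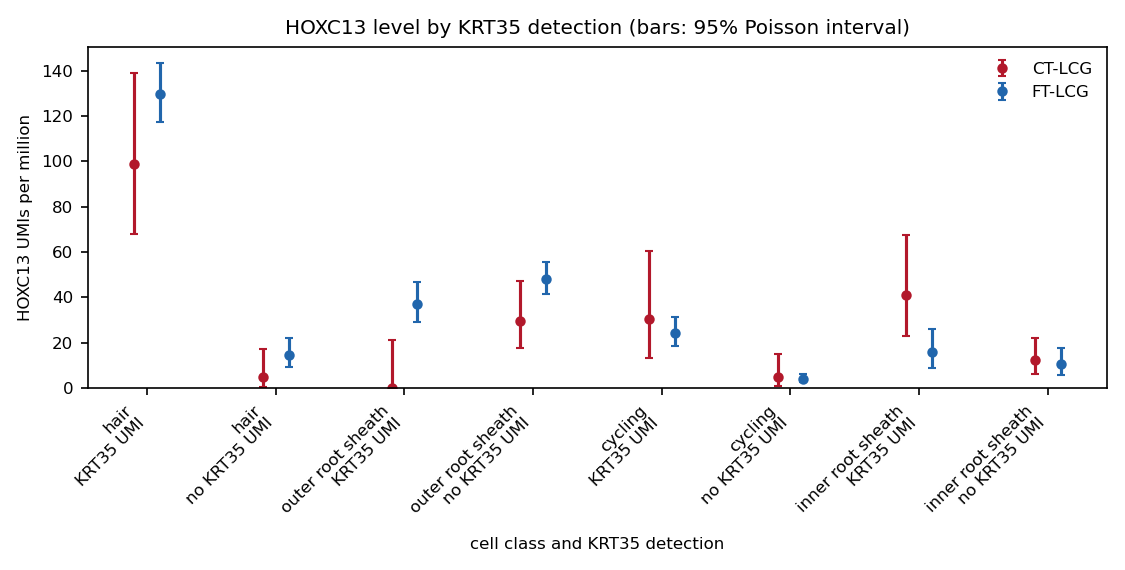
HOXC13 level (y axis, CPM) in cells with and without a KRT35 UMI, in 4 cell classes (x axis) of CT (red) and FT (blue), with 95% Poisson intervals. Hair and cycling cells with KRT35 lie above those without it in both libraries, and outer root sheath cells do not.

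The neighbours of HOXC13 on the cluster were rare. HOXC10, HOXC11 and HOXC12 had 1, 0 and 0 UMIs in CT and 21 each in FT. In FT, hair cells held 18 UMIs of these genes and cycling cells 25, or 3.94 CPM (2.33 to 6.22) and 3.37 CPM (2.18 to 4.98), against 5 in outer root sheath cells, or 0.89 CPM (0.29 to 2.07), and 6 in all epidermal cells. HOXC12 had 9 of its 21 UMIs in hair cells. In CT hair and cycling cells had 0 UMIs of these genes, which allows up to 3.98 and 3.53 CPM for 3 counts, so that a level like that of FT could not be seen at this depth. HOXC13 UMIs also occurred in 27 of 102 cells of the smooth muscle-like cluster of FT, which was led by ACTG2 and KRT6A and also had KRT14, and in 0 of 51 of CT. Its 39 UMIs there were 69.7 CPM (49.6 to 95.3).

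Other hair genes fixed as a list showed where HOXC13 stood among them. Of 18 in the matrix, 16 had at least 20 UMIs, and 11 of these were highest in the hair cluster by the mean level of the libraries. KRT32, KRT35, KRT36, KRT38, KRTAP3-1, KRTAP11-1 and LEF1 among them were in the marker list that named this cluster. Their place there followed from the naming and is no result. KRT35 led with a mean of 3587 CPM, followed by KRTAP11-1, a hair matrix protein, with 1072 and KRTAP3-1 with 395. The libraries differed in these genes: KRT35 was at 2190 and 4985 CPM in hair cells, KRTAP11-1 at 187 and 1958, and KRTAP3-1 at 1.33 and 789. HOXC13, at 46.4 and 92.3 CPM, was counted less than each of them in FT, while in CT it stood above KRTAP3-1. The other 5 genes were highest in other classes, among them GATA3 in T cells.

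HOX proteins bind DNA with TALE partners of the PBX, MEIS and PKNOX families, and 8 of 9 such genes had at least 20 UMIs. By the mean of the libraries 3 were highest in stromal cells, among them MEIS3 at 19.4 CPM and MEIS1 at 12.1. MEIS1 stood at 12.3 and 11.9 CPM in stromal cells and at 1.10 and 1.62 in epidermal cells. PBX2 and PKNOX2 were highest in inner root sheath and outer root sheath cells, and the others in mast or T cells. Of 12 other patterning factors with at least 20 UMIs, 11 were highest in stromal cells. Among them were TWIST1 at 784 CPM, PRRX2 at 342 and PRRX1 at 337, which mark limb and body wall mesenchyme. Some, such as ALX4 with 28 UMIs in all, reached 20 UMIs only through stromal cells and had to be highest there. The share of all features highest in stromal cells is not given here, so the count describes this list and tests nothing. The remaining gene, PITX1, a hindlimb gene, was highest in endothelial cells at 4.98. This mean rested on FT, with 0 CPM in CT and 9.96 in FT, against 1.74 and 1.69 in epidermal cells. The Polycomb and trithorax genes, which keep HOX genes off or on through cell division, had no such order: of 10, 3 were highest in mast cells, 3 in T cells, 2 in cycling cells and 1 each in stromal and endothelial cells.

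The HOX level of the epidermis was higher in FT than in CT. Over all epidermal cells the ratio of FT over CT was 2.40 (2.13 to 2.71) for summed HOXC genes, 1.57 (1.37 to 1.80) for HOXB and 1.01 (0.91 to 1.13) for HOXA. Within HOXA the members lay on both sides of 1, with HOXA2 at 1.84 (1.27 to 2.74), HOXA3 at 1.83 (1.30 to 2.65) and HOXA5 at 0.74 (0.63 to 0.86). In basal cells HOXA genes had 31.8 and 33.3 CPM in CT and FT, a ratio of FT over CT of 1.05 (0.84 to 1.31), and in suprabasal cells the ratio was 0.97 (0.85 to 1.11). HOXC genes had 30.5 and 51.8 CPM in basal cells, a ratio of 1.70 (1.37 to 2.12), and 16.1 and 41.2 in suprabasal cells, a ratio of 2.55 (2.18 to 3.01). HOXC5 had a ratio of 2.19 (1.21 to 4.33) in basal and 4.36 (2.80 to 7.12) in suprabasal cells, and HOXC4 of 1.82 (1.25 to 2.74) and 2.75 (2.04 to 3.76). HOXB6 was at 2.73 (1.01 to 10.4) and 7.18 (3.36 to 18.3). HOXA5 was lower in FT, at 0.69 (0.50 to 0.97) and 0.81 (0.68 to 0.98). HOXA3 was at 1.53 (0.84 to 3.07) and 1.70 (1.11 to 2.70), and HOXA2 at 1.40 (0.78 to 2.73) and 1.59 (0.95 to 2.78). HOXB7 was at 1.00 (0.78 to 1.29) in basal and 1.31 (1.09 to 1.59) in suprabasal cells, and over all epidermal cells it stood at 13.9 CPM in CT and 18.6 in FT, a ratio of 1.34 (1.16 to 1.55).

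**Figure D5:**
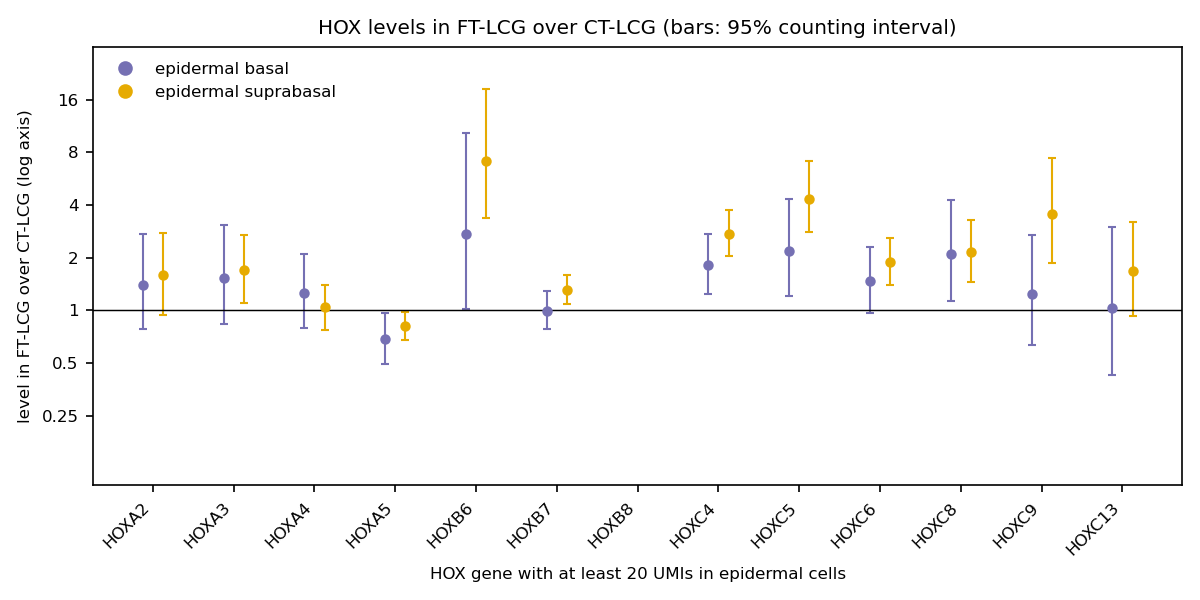
Level in FT over level in CT (y axis, log scale; line at 1) of the HOX genes reported here with at least 20 UMIs in epidermal cells, for basal and suprabasal cells, with 95% counting intervals; a ratio with under 3 UMIs in a library is not drawn, which leaves HOXB8 empty. HOXC4, HOXC5, HOXC8 and HOXB6 lie above 1 with their intervals in both layers and HOXA5 lies below 1 in both.

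In all epidermal cells 15 of the 26 genes were more than 2-fold higher in FT (14.1% of all features were), and 1, HOXA7, was more than 2-fold higher in CT (9.91%). Many of the 15 had few or 0 epidermal UMIs in CT: of the 14 genes with at least 20 epidermal UMIs, 6 were more than 2-fold higher, HOXB6, HOXB8, HOXC4, HOXC5, HOXC8 and HOXC9 (10.7% of the 13677 features with as many epidermal UMIs were), and 0 were more than 2-fold higher in CT (8.03%). The median log2 ratio was -0.000498 over 15025 features and 0.86 over the 17 HOX genes with epidermal UMIs in both libraries. The cells differed in more than the library, with median depths of 4461 and 7703 UMIs in basal cells and 19435 and 12581 in suprabasal cells, and their part in the ratios was not tested. In outer root sheath cells HOXC was at 61.9 and 139 CPM and in hair cells at 66.3 and 129. The hair difference depended on the clusters: all HOX genes summed were at 91.5 and 158 CPM in hair cells, but at 166 and 161 with finer clusters and at 162 and 161 without the Harmony correction. In stromal cells the ratio of the summed HOX level was 0.88 (0.72 to 1.07) and in endothelial cells 1.32 (1.00 to 1.76), so that neither interval separated the libraries clearly. The stromal order turned under 4 of 11 alternatives, among them the mean over cells, at 347 and 410 CPM, and the cells thinned to 1000 UMIs, at 290 and 351.

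Across the 26 genes, Spearman's rho between the UMIs of CT and FT was 0.94 for basal cells, 0.91 for suprabasal cells, 0.85 for stromal cells and 0.71 for endothelial and for hair cells. Between endothelial cells of CT and basal cells of FT rho was -0.13, and between endothelial and stromal cells it was 0.11. Hair cells of CT were closer to other classes of FT than to its hair cells, at 0.89 for outer root sheath, 0.77 for basal and 0.76 for suprabasal cells. Genes of one library share its depth, so these values describe likeness only. Basal cells of CT and suprabasal cells of FT were at 0.93, close to the values within a class.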

How the data were processed

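Goat skin cells were measured with 1 library for each of 2 goats. The authors deposited raw UMI counts per gene and cell, made with Cell Ranger 3.0.2 per the file headers, as 1 matrix of both libraries; the submitters' processing notes name Seurat 3.1.1. The goat genome build was not given in the sources used here, nor was the strand setting of the counting. The builds named in the labels are human and mouse. The 13051 cells of the deposited cell list were kept of 17299 barcodes, and the library of each cell was taken from that list. The GEO labels do not say which sample is which fibre type, so no sample was assigned to a group. No value columns were left unmatched (0).

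Identifiers of 37 of 37 HOX genes matched a RefSeq gene table (assembly ARS1.2), used for names and neighbours only. In that annotation HOXB8 lies within HOXB9, and non-coding features overlap HOXA3 to HOXA6 and HOXB3, so counts of these genes are uncertain.

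Counts were scaled to 10000 UMIs and clustered without HOX genes in scanpy 1.11.5 (2000 variable genes, 10 principal components, a Harmony correction written in numpy 2.4.6, 20 neighbours, Leiden resolution 1). Clusters were named from marker lists. Scrublet called 0 doublets in both libraries and has thus not worked; removing the 5% highest scores was an alternative. HOX genes with at least 20 UMIs were described by class, the rest by counts, and of the other lists the counts and the 3 highest genes. Features were called higher or lower past 2-fold. Intervals are exact Poisson for levels, Clopper-Pearson for shares and conditional binomial for ratios, at 95%, and cover counting error only. No p-value was computed, since cells are not replicates. Scripts were tested on simulated data. The members and lists were chosen with earlier results of these data known. Values of some listed genes are not reported here.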

Additional observations from a re-analysis of the deposited data

Results flagged for a closer look

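Barcodes that the deposited cell list leaves out were used in no comparison, and HOX UMIs occurred in them above the limit of 3 counts. CT-LCG had 2659 such barcodes with 1981829 UMIs, of which 137 were HOX UMIs, or 69.1 CPM (58.0 to 81.7). FT-LCG had 1589 with 996544 UMIs, of which 141 were HOX UMIs, or 141 CPM (119 to 167). The kept cells of the same libraries were at 71.2 and 116 CPM. Of the left-out HOX UMIs, HOXC13 gave 33 in CT-LCG and 10 in FT-LCG. Kept hair cells had 35 and 422 HOXC13 UMIs. In CT-LCG nearly as many HOXC13 UMIs were thus left out as were counted in kept hair cells.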

How the results depend on the processing

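No paired analysis was possible because each fibre type has 1 library. Of 105 alternative values over 18 results, 78 stayed within the counting interval or 1.5 times the count and 27 moved. The order of the libraries turned in 7 of the 43 alternatives that give a level in each, 4 of 11 for all HOX genes in stromal cells, 2 of 9 for all HOX genes in hair cells and 1 of 9 for HOXC13 in hair cells, and in 0 of 11 for the epidermis. Values are HOX UMIs per 1000000 UMIs (CPM) unless stated. At resolution 1.5, hair cells were at 166 (CT-LCG) and 161 (FT-LCG), and HOXC13 in hair moved to 90.7 (CT-LCG) and 105 (FT-LCG). Without Harmony, hair cells were at 162 and 161, HOXC13 in CT-LCG at 85.1, and stromal cells at 379 and 381. The CT-LCG hair values therefore depend on the clustering. Resolution 0.7 gave stromal and epidermal values but none for a hair class. With per-cell marker gates, stromal cells were at 297 and 289, hair cells at 116 and 143, epidermal cells at 66.1 and 111, and HOXC13 in hair at 66.7 and 59.9. As a mean over cells, the values were 347 and 410 for stromal cells, 148 and 181 for hair, 73.6 and 109.7 for epidermis, and 91.8 and 141 for all cells. Thinned to 1000 UMIs, they were 290 and 351 for stromal cells, 200 for hair of FT-LCG, and 79.0 and 112 for epidermis. A limit of 4-fold left 2 genes higher in outer root sheath cells in place of 6. Scaled without the 100 highest genes, the log2 ratio of FT-LCG over CT-LCG in epidermis was 0.79 against 0.66. Without the RGS5, ACTG2 and melanocyte-like sub-clusters, an alternative chosen after seeing the data, stromal cells were at 399 and 477. With the unnamed LY6D cluster added, also an unplanned alternative, the 1383 and 4776 epidermal cells were at 59.9974 and 93.5427. The TRPV3 cluster was not added. The causes were not tested. Small classes in CT-LCG, such as 57 endothelial cells, limit precision, and the choice of clusters or gates moved values beyond their counting intervals.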

Other observations

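Features without a HOX name inside the HOX clusters also differed between classes. LOC102169699, a non-coding feature that overlaps HOXB3, had 76 and 37 stromal UMIs in CT-LCG and FT-LCG, or 155 and 63.1 CPM, and 9 and 80 endothelial UMIs, or 42.6 and 88.5 CPM, against 1 and 7 among all epidermal cells. LOC102190854, next to HOXC9 in the reference order, had 447 and 2589 UMIs in all. It stood at 182 and 107 CPM in stromal cells, with 0 and 6 UMIs in endothelial cells, and at 9.03 and 65.8 CPM in outer root sheath cells. LOC108635846, in the HOXA cluster, stood at 18.1 and 16.7 CPM in epidermal cells. The strand used in counting is not given in the sources used here, so reads of overlapping genes cannot be told apart.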
